A study of Mus musculus with 10 samples.

Results

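Lymph node B cells labelled as carrying an activated Notch2 allele were compared with control marginal zone precursor B cells. The comparison rests on 4 of the 10 RNA sequencing libraries of a mouse study of joint NF-kB and Notch activation, chosen by their titles: 2 labelled Notch-activated and 2 control libraries. All came from C57BL/6 mice, from lymph node, and all are described as pre-malignant. Control cells were Wild-type. The Notch-labelled cells have the labelled genotype Rosa-Notch2ICN x CD19Cre, in which a Cre recombinase active in the B lineage acts on an allele of the intracellular part of Notch2 placed in the Rosa locus. The control cells carry no Cre and are labelled marginal zone precursor B cells, whereas the Notch-labelled ones are labelled marginal zone B cells, although the names of their files carry the precursor abbreviation. Genotype, Cre, labelled cell type and clonal makeup therefore differ together between the groups and cannot be told apart. A second group labelled with the Notch2 allele, doubly activated marginal zone precursors (Rosa-NIKdeltaT3flSTOP x Rosa-Notch2ICN x CD19Cre, 2 libraries), served to test whether genes named here also differ between groups that share this label. Age and sex are not given in the sources used here, and whether the paired libraries in each group stem from different mice is not stated. A p-value here therefore speaks only to library-to-library spread, which may be technical in the Notch-labelled pair. The control pair differed in Y-linked RNA, as given below, so its spread was not technical alone. The Notch-labelled libraries shared the same dominant receptor, as given below, and are read as libraries of the same clone, not as independent replicates. Calls against them therefore describe that clone.

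Notch receptors are cut on binding a ligand of a neighbouring cell, and the released intracellular part enters the nucleus, joins the DNA-binding protein Rbpj and the Mastermind coactivators, and switches on target genes such as the Hes and Hey repressors. In B cells this happens mainly through Notch2, which is needed for marginal zone B cells, innate-like cells of the spleen that carry much complement receptor Cr2 and Cd1d1 and little of the IgE receptor Fcer2a (CD23). The larger follicular B cell pool instead recirculates through lymph nodes, guided by Ccr7 and Cxcr5.

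Depth was 16407353 and 18564306 estimated counts in the control and 18864545 and 18802121 in the Notch-labelled libraries. Expression is given per library as TMM-scaled CPM, control library 1 before 2 and Notch-labelled library 1 before 2. Differences are log2 fold changes ± SE with the adjusted p of edgeR's quasi-likelihood test over 15583 genes. Across genes, which are not independent replicates, log2(CPM + 1) correlated at r = 0.995 between the Notch-labelled libraries, 0.989 between the control libraries and 0.874 to 0.886 across the groups. A single receptor dominated the Notch-labelled libraries, which are therefore read as a clonal population: the heavy chain segment Ighv1-55 made up 92.8% (95% Wilson interval 92.1% to 93.4%) and 93.8% (93.2% to 94.4%) of Ighv counts there, and the leading segment at most 5.97% (5.49% to 6.49%) in control. Such intervals cover counting error only. The light chain pointed the same way: Igkv12-41 led both Notch-labelled libraries, with shares of 92.7% and 94.1% among kappa segments. The leading kappa segment of a control library reached at most 6.4%. Because heavy and light segments were both shared, the Notch-labelled pair is read as the same clone. Agreement within this pair cannot speak to differences between clones or mice. The control libraries also stood apart from each other in the Y-linked gene Ddx3y, an RNA helicase gene, at 59.8 and 0.653 CPM. It was 2.4 and 1.88 CPM in Notch-labelled and 109.6 and 187 CPM in doubly activated libraries. The Y-linked gene Eif2s3y was 36.9 and 0.544 CPM in control and 2 and 1.48 CPM in Notch-labelled libraries. The control pair thus did not hold the same mix of male and female cells. The part of this mix in other differences was not tested. In bulk RNA, fewer cells of a type and less RNA per cell cannot be told apart.

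Most of the measured transcriptome differed. Of 15583 genes, 5328 rose (34.2%) and 4594 fell (29.5%) at an adjusted p under 0.05, so that 63.7% were called, and 3272 of the rises and 2144 of the falls exceeded 2-fold. Both Notch-labelled libraries lay above both control libraries in 44.4% of genes and below both in 38.4%. These shares are the background for counts without overlap in the gene groups given here. The shares of 34.2% and 29.5% are the background for counts of rises and falls. The median log2 fold change over all genes was 0.07, and 0.18 when libraries were scaled by size alone.

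**Figure D1:**
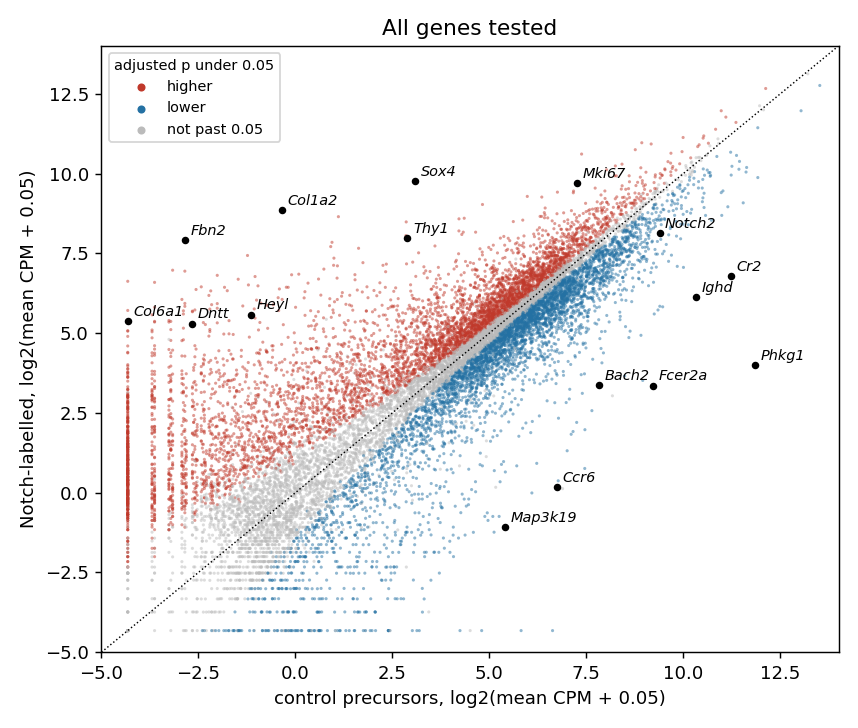
Mean expression of each tested gene in control (x axis) and Notch-labelled libraries (y axis), both as log2(mean CPM + 0.05); red points are higher and blue points lower in Notch-labelled libraries at an adjusted p under 0.05, and grey points did not pass. The dotted line marks equal expression; the column of points at the left edge holds genes with no control count, and 60 genes had no control count and a mean of at least 5 CPM in Notch-labelled libraries.

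RNA summed to the Notch2 gene was lower, not higher, in the Notch-labelled libraries. Total Notch2 (ENSMUSG00000027878, chromosome 3, 98013527 to 98150361, GRCm38) was 652 and 689.7 CPM in control and 284 and 278 CPM in Notch-labelled libraries, lower in both (log2 -1.25 ± 0.08, adjusted p = 9.55e-08). A gene total is a weak check, because reads of the Rosa allele and of the endogenous gene fall on 1 gene here, and only 1 Notch2 transcript was listed. In doubly activated libraries, labelled with the same allele, Notch2 was 702 and 753 CPM, so both Notch-labelled libraries were below them too (log2 -1.37 ± 0.09, adjusted p = 4.57e-08). Notch1, the receptor that drives T cell commitment, moved the other way, from 53.4 and 61 to 212 and 217 CPM (log2 1.90 ± 0.10, adjusted p = 1.34e-08), a call lost when effective transcript lengths were used as offsets (log2 1.64, adjusted p = 0.0585). Notch3 was all but absent from control libraries (0 and 0.0544 CPM) and present in both Notch-labelled ones (14.5 and 13.4 CPM, ratio 483 with a counting interval of 86.3 to 19114, adjusted p = 3.11e-07). The ligand Jag1 followed the same pattern, at 0 and 0.163 CPM in control and 28.1 and 26.1 CPM in Notch-labelled libraries (ratio 313 with a counting interval of 107 to 1521, adjusted p = 1.61e-08). None of these genes overlapped between the groups. Fibroblast markers moved with the rises of Notch3, Jag1 and Heyl from near 0: their summed level was 2.21 and 3.15 CPM in control and 635 and 859.5 CPM in Notch-labelled libraries, and their part in these rises was not tested.

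Over the whole Notch pathway list, 10 of 33 tested members rose, 16 fell and 7 did not pass, against 34.2% and 29.5% of all genes. The median log2 was -0.20, and -0.13 without control library 1. Of the receptors and processing enzymes 4 rose and 10 fell of 20. Psen2, a catalytic subunit of the gamma-secretase that releases the intracellular part, fell from 94.7 and 108 to 26.9 and 24 CPM (log2 fold change -1.996, SE 0.10, adjusted p = 7.01e-09). Lfng, a glycosyltransferase that tunes ligand choice, was 35.9 and 66.5 CPM in control and 13.9 and 14.8 CPM in Notch-labelled libraries (log2 -1.84 ± 0.39, adjusted p = 0.00507). Lfng stood at 12.1 and 13.5 CPM in the doubly activated libraries, and the difference between the groups labelled with the allele did not pass (log2 0.17 ± 0.41, adjusted p = 0.737). Among ligands 2 rose and 1 fell of 4 tested, and of the nuclear complex 4 rose and 5 fell of 9. Rbpj, the DNA-binding partner, was 53.6 and 48.6 CPM in control and 59.5 and 64.6 CPM in Notch-labelled libraries (log2 0.28 ± 0.11, adjusted p = 0.0368), a call lost without control library 2 (adjusted p = 0.252) and without either Notch-labelled library (0.0575 and 0.202).

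Notch target genes rose more often than they fell. Of 20 listed targets, 11 of 19 tested members rose, 1 fell and 7 did not pass (median log2 0.50), and 12 of 19 were higher in both Notch-labelled than in both control libraries. Heyl, a Hes-related repressor gene, was 0.43 and 0.381 CPM in control and 50.9 and 44.1 CPM in Notch-labelled libraries (log2 6.85 ± 0.23, adjusted p = 4.86e-10). The groups did not overlap. In doubly activated libraries Heyl was 23.3 and 25.6 CPM, lower than in the Notch-labelled libraries (log2 0.96 ± 0.14, adjusted p = 5.32e-05). Il2ra, the high-affinity IL-2 receptor chain, rose from 4.8 and 4.52 to 47.1 and 70.1 CPM (log2 3.65 ± 0.23, adjusted p = 4.81e-08), while the doubly activated libraries held 2.23 and 1.5 CPM. Nrarp, a feedback inhibitor of Notch, was 4.8 and 7.89 CPM in control and 17.4 and 18.9 CPM in Notch-labelled libraries (log2 1.51 ± 0.27, adjusted p = 3.49e-04). Hes5, a repressor used in neural progenitors, was 15.5 and 13.2 CPM in control and 43.1 and 38.6 CPM in Notch-labelled libraries (log2 1.51 ± 0.22, adjusted p = 8.65e-05). In the doubly activated libraries Nrarp was 1.67 and 1.7 CPM and Hes5 11.7 and 7.39 CPM, below the Notch-labelled libraries in each case. Both differed between the groups labelled with the allele (Nrarp log2 3.42 ± 0.31, adjusted p = 9.91e-07; Hes5 log2 2.09 ± 0.23, adjusted p = 7.66e-06).

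Other targets were higher in doubly activated than in Notch-labelled cells. Dtx1, an E3 ligase of the Notch pathway with a high level in marginal zone cells, was 719 and 681 CPM in control and 1022 and 960.3 CPM in Notch-labelled libraries (log2 0.50 ± 0.12, adjusted p = 0.00326) and 1347 and 1609.8 CPM in doubly activated libraries (log2 -0.58 ± 0.12, adjusted p = 0.00128). Asb2, a ubiquitin ligase subunit, was 30.01 and 34.9 CPM in control and 135 and 122 CPM in Notch-labelled libraries (log2 1.98 ± 0.15, adjusted p = 7.28e-07) and 340.2 and 449.8 CPM in doubly activated libraries (log2 -1.62 ± 0.14, adjusted p = 2.21e-06). For the targets named here, the groups labelled with the allele differed in opposite directions, and the 2 comparisons share the Notch-labelled libraries. Over the list, 7 of 19 tested targets were higher and 6 lower in Notch-labelled than in doubly activated cells. Of all genes, 33.2% were higher and 30.9% lower (64.2% called in either direction), so the split of the list is close to that of genes at large. The single fall against control was Cd300a, an inhibitory receptor, from 7.93 and 13.9 to 5.65 and 3.86 CPM (log2 -1.20 ± 0.31, adjusted p = 0.00524), a call lost without control library 2 or without Notch-labelled library 2. Hes1 was 79.8 and 51.7 CPM in control and 55 and 53.9 CPM in Notch-labelled libraries and did not pass (log2 -0.27 ± 0.18, adjusted p = 0.215). Its control libraries spread more widely than the Notch-labelled ones, and it passed as lower without control library 2 (log2 -0.59, adjusted p = 0.00162).

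Promoter windows were read for the RBPJ core, TGGGAA on either strand (TTCCCA on the other), because that is the site through which the nuclear complex binds. It lay in 7 of 19 promoter windows of 15 Notch target genes (36.8%), in 13 of 34 windows of 30 DNA replication genes (38.2%) and in 25.6% of all 32817 RefSeq promoter windows of the same length, so its share in Notch targets was no higher than in replication genes. The other listed genes of these groups, Heyl among them, had no window and were not read. Hes5 (chr4:154960673-154960972, plus strand) and Sox4 (chr13:28953650-28953949, minus strand), shown as examples of risen genes that hold the site, had 2 matches and 1 match, in capitals. Sox4 is not on the Notch target list. The windows of Nrarp, Il2ra, Dtx1 and Notch3, which also rose, had 0 matches. Sequences are from RefSeq (GRCm38.p6), 5′ to 3′ on the gene's strand. A match describes letters only.
Hes5: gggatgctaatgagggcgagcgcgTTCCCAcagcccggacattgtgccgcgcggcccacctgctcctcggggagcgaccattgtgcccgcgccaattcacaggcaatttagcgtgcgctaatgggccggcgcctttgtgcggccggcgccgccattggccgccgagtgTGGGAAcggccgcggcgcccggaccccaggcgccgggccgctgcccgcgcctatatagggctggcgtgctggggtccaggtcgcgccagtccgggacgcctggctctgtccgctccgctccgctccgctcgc
Sox4: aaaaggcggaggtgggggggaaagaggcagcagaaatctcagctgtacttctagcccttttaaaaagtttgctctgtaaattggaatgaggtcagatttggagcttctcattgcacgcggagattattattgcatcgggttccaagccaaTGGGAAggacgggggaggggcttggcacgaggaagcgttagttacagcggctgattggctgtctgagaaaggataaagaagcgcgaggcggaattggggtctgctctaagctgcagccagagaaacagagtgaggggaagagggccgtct

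**Figure D2:**
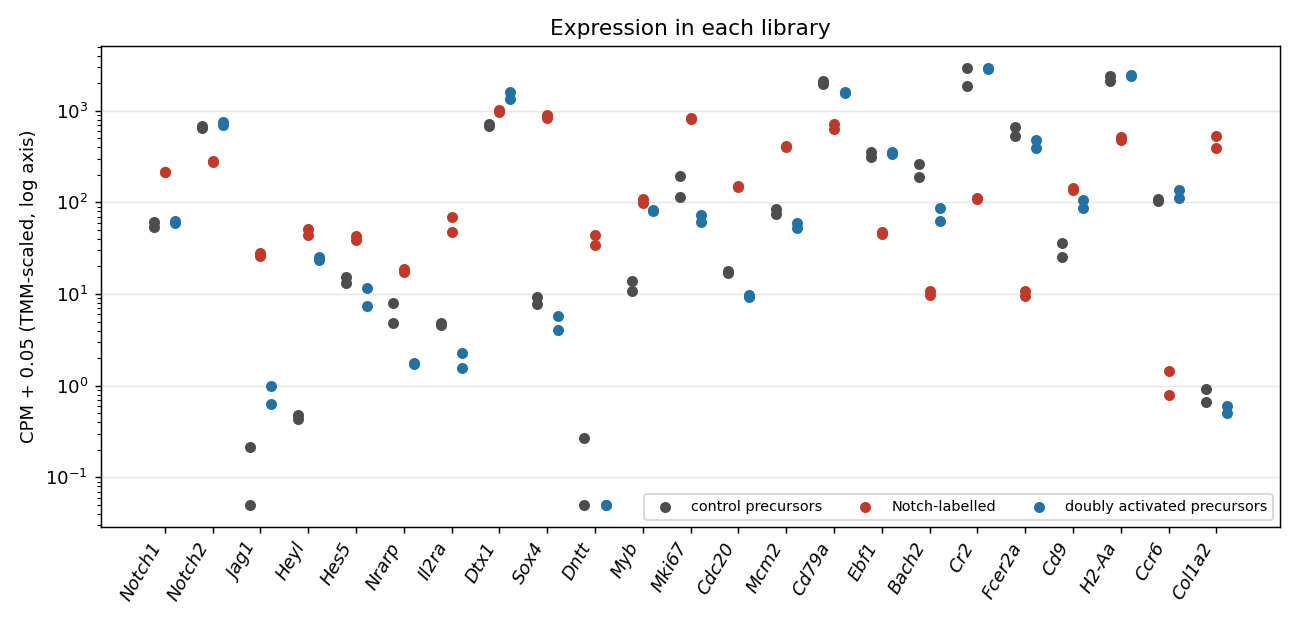
CPM plus 0.05 on a log axis for each of 23 genes, with 1 point per library: control (grey), Notch-labelled (red) and doubly activated (blue). Heyl, Sox4, Dntt, Jag1 and Col1a2 stand far above control in both Notch-labelled libraries, and Cr2, Fcer2a, Bach2 and Ccr6 far below it.

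Marginal zone genes were split. Of 23 tested members 11 rose, 10 fell and 2 did not pass (S1pr3 and Tcf4), with a median log2 of 0.29 that went to 0.48 without control library 1 and 0.08 without control library 2. Tcf4, an E protein gene, passed as lower without control library 2 (log2 -0.30, adjusted p = 0.0203) and as higher with effective lengths as offsets (log2 0.29, adjusted p = 0.0401). Cr2, the complement receptor CD21, whose abundance defines the marginal zone phenotype, was 2899 and 1874 CPM in control and 111 and 109.9 CPM in Notch-labelled libraries (log2 -4.43 ± 0.20, adjusted p = 7.92e-08). Fcer2a, which marginal zone cells carry at a low level, was 532 and 669 CPM in control and 10.8 and 9.39 CPM in Notch-labelled libraries (log2 -5.89 ± 0.19, adjusted p = 3.61e-09). Both receptor genes therefore stood far below control, whereas marginal zone B cells are known for high Cr2. Other marginal zone genes rose: the tetraspanin Cd9 was 35.9 and 25 CPM in control and 144 and 138 CPM in Notch-labelled libraries (log2 2.21 ± 0.18, adjusted p = 4.71e-06), and Cd1d1, the lipid-presenting molecule, was 179 and 126 CPM in control and 237 and 236 CPM in Notch-labelled libraries (log2 0.64 ± 0.16, adjusted p = 0.00657). S1pr3, a sphingosine phosphate receptor typical of marginal zone cells, was 113 and 87.5 CPM in control and 121 and 124 CPM in Notch-labelled libraries (log2 0.29 ± 0.13, adjusted p = 0.0737), a difference that passed with libraries scaled by size alone and with DESeq2 (adjusted p = 0.018 and 0.0388) and without control library 1 (0.00719). In doubly activated libraries Cr2 was 2940.3 and 2869 CPM and Fcer2a 481 and 391 CPM, both above the Notch-labelled libraries (Cr2 log2 -4.72 ± 0.20, adjusted p = 5.73e-08; Fcer2a log2 -5.43 ± 0.19, adjusted p = 5.2e-09). Cr2 thus went against the labelled cell type, while Cd9, Cd1d1 and low Fcer2a went with it and S1pr3 did not pass. Low Fcer2a is not specific here, since the follicular genes given below all fell. Against doubly activated cells, 2 of 23 marginal zone genes were higher, 12 lower and 9 did not pass (median log2 -0.53). Of all genes, 33.2% were higher and 30.9% lower in that comparison.

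Follicular B cell genes fell throughout: 0 of 15 tested members rose, 15 fell and 0 did not pass (median log2 -2.16), against 29.5% of all genes. Fcmr, the IgM Fc receptor, fell from 616 and 729.6 to 59.5 and 55.1 CPM (log2 -3.55 ± 0.15, adjusted p = 7.56e-09). Ighd, the IgD heavy chain constant gene, fell from 1142 and 1420.3 to 72.8 and 66.7 CPM (log2 -4.20 ± 0.37, adjusted p = 1.11e-04). For each of these genes the Notch-labelled libraries lay far below both control libraries. Among 16 chemokine and positioning receptors, 2 rose and 10 fell (median log2 -1.13). Ccr6 (ENSMUSG00000040899, chromosome 17, 8236043 to 8257141), the receptor for Ccl20, was 109.7 and 104 CPM in control and 1.4 and 0.742 CPM in Notch-labelled libraries (log2 -6.64 ± 0.22, adjusted p = 1.44e-09), and the cannabinoid receptor Cnr2 was 357 and 311 CPM in control and 78.3 and 68.9 CPM in Notch-labelled libraries (log2 -2.18 ± 0.10, adjusted p = 3.88e-09). Cxcr5 and Ccr7, which guide B cells to follicles and to the T zone, were at log2 -2.16 and log2 -2.01. The rises, Ccr2 and Ccr10, stayed under 3 CPM in every control and Notch-labelled library, and neither kept its call without Notch-labelled library 1. Integrins went both ways, with 6 rose and 7 fell of 16, against 34.2% and 29.5% of all genes. Their median log2 of 0.17 went to -0.07 without control library 1 and 0.10 without Notch-labelled library 2. Itgb1, the shared beta chain, rose from 51.2 and 57.9 to 199 and 235 CPM and Itga4, its partner in VLA-4, fell from 560.2 and 539.8 to 192 and 206 CPM.

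B lineage identity genes were expressed and mostly lower. In all, 4 of 31 tested members rose, 24 fell and 3 did not pass (median log2 -0.77). The signalling chain Cd79a of the B cell receptor was 1946 and 2086 CPM in control and 716 and 638 CPM in Notch-labelled libraries, and Ms4a1 (CD20) 1696 and 1350.2 CPM in control and 420.4 and 405 CPM in Notch-labelled libraries. All 4 libraries thus held these lineage transcripts, the Notch-labelled ones at lower levels. Among transcription factors, Ebf1, an early specification factor, fell from 351 and 313 to 45 and 46.9 CPM (log2 -2.85 ± 0.09, adjusted p = 4.5e-10). Foxo1, which supports B cell homing and recombination, fell from 267 and 277 to 40.7 and 40.8 CPM (log2 -2.74 ± 0.10, adjusted p = 7.79e-10). Bach2, a repressor of plasma cell fate, fell from 189.8 and 265 to 9.75 and 10.8 CPM (log2 -4.47 ± 0.26, adjusted p = 1.83e-06). The 4 members that rose were Pax5, Tcf3, Myb and Blk. Myb, a progenitor transcription factor, went from 14 and 10.8 to 97.8 and 109 CPM (log2 3.07 ± 0.15, adjusted p = 1.02e-08), and the doubly activated libraries held 81.3 and 83.5 CPM. Pax5, the commitment factor, was 251 and 256 CPM in control and 409.9 and 378 CPM in Notch-labelled libraries (log2 0.64 ± 0.17, adjusted p = 0.00982), a call lost without control library 1, without control library 2 or without Notch-labelled library 1 (adjusted p = 0.0737, 0.0713 and 0.0539). Blk lost its call without any 1 of the 4 compared libraries.

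Genes of B cell receptor signalling, its inhibitory coreceptors and MHC class II presentation fell in large part. In receptor signalling, 2 rose and 15 fell of 20 (median log2 -0.64). The activator of Ras, Rasgrp3, fell from 257 and 219 to 33.1 and 33 CPM (log2 -2.85 ± 0.12, adjusted p = 3.48e-09), and the kinase Btk from 226 and 233 to 97.4 and 91.9 CPM (log2 -1.28 ± 0.07, adjusted p = 1.99e-08). Nfatc1, a calcium-driven transcription factor, rose instead (log2 0.58 ± 0.10, adjusted p = 2.39e-04). Of the inhibitory coreceptors, 2 rose and 11 fell of 14 (median log2 -1.33). The adaptor Dok3 fell from 336 and 398 to 67.3 and 62.9 CPM, and the sialic acid receptor Cd22 from 2074 and 2084 to 719.9 and 685 CPM. The 2 rises were Cd5 (6.7 and 5.55 to 21.2 and 19.9 CPM) and Pdcd1 (0.43 and 0.653 to 7.15 and 7.17 CPM). MHC class II genes fell in 13 of 13 (median log2 -1.28). Their master regulator Ciita was 451 and 498 CPM in control and 227 and 211 CPM in Notch-labelled libraries (log2 -1.11 ± 0.08, adjusted p = 1.44e-07), and H2-Ob, a modulator of peptide loading, was 968 and 1084 CPM in control and 138 and 128 CPM in Notch-labelled libraries (log2 -2.94 ± 0.09, adjusted p = 4.7e-10). MHC class I genes did not follow: 6 of 10 tested members rose, 0 fell and 4 did not pass (median log2 0.37). Their regulator Nlrc5 rose from 208 and 216 to 768 and 726 CPM (log2 1.82 ± 0.08, adjusted p = 3.94e-09).

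Genes of early lymphoid and progenitor cells were higher. Of the early B and recombination list, 19 of 30 tested members rose, 5 fell and 6 did not pass (median log2 1.69), and of its 12 progenitor regulators 10 rose and 1 fell (Lmo2). Sox4 (ENSMUSG00000076431, chromosome 13, 28948919 to 28953713), a transcription factor of early lymphoid and other progenitor cells, was 7.75 and 9.19 CPM in control and 893 and 837 CPM in Notch-labelled libraries (log2 6.67 ± 0.38, adjusted p = 8.51e-06). Its control libraries and the doubly activated ones (5.74 and 3.99 CPM) stayed under 10 CPM. Dntt, the template-free polymerase of V(D)J joining, was 0 and 0.218 CPM in control and 34.5 and 44 CPM in Notch-labelled libraries (log2 8.33 ± 0.68, adjusted p = 6.84e-06) and had no count in either doubly activated library. Kit, the stem cell factor receptor, was 0.307 and 1.52 CPM in control and 16.6 and 23 CPM in Notch-labelled libraries (log2 4.38 ± 0.37, adjusted p = 4.58e-06). The recombinase genes Rag1 and Rag2 passed as well but stayed low, Rag1 at 0 and 0.0544 CPM in control and 1.35 and 2.27 CPM in Notch-labelled libraries and Rag2 at 0.307 and 0.381 CPM in control and 1.2 and 2.13 CPM in Notch-labelled libraries. Rag2 lost its call without Notch-labelled library 2 (adjusted p = 0.106). Id1, an inhibitor of E proteins, was 0.123 and 0.218 CPM in control and 12.4 and 16.6 CPM in Notch-labelled libraries (log2 6.34 ± 0.81, adjusted p = 4.05e-05), and Mycn, a Myc family gene of progenitors, was without a control count and reached 4.9 and 7.22 CPM in Notch-labelled libraries, at least 70.03-fold higher against a floor of 3 counts over the control group. The surrogate light chain genes Vpreb1 and Igll1 are listed at 0 in all 4 libraries. So is Spcs1, a signal peptidase subunit gene that cells use in general, so a listed 0 need not mean that a gene was not expressed. Lmo2, a cofactor of progenitor transcription complexes, fell from 157 and 185 to 25.5 and 24.4 CPM (log2 -2.78 ± 0.10, adjusted p = 7.65e-10).

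Immunoglobulin isotypes and plasma cell genes shifted in part. Ighm, the IgM constant gene, was 3986 and 4014 CPM in control and 4631 and 4306 CPM in Notch-labelled libraries and did not pass (log2 0.16 ± 0.09, adjusted p = 0.134). Ighg3, the IgG3 constant gene, rose from 14.5 and 26.2 to 396 and 380.3 CPM (log2 4.24 ± 0.31, adjusted p = 2.26e-05). Ighg2b was 8.61 and 45.4 CPM in control and 201 and 199 CPM in Notch-labelled libraries (log2 2.87 ± 0.81, adjusted p = 0.0255), a call lost without either Notch-labelled library. Constant genes of a locus are similar, so counts may be split among them. Plasma cell genes rose in 8 and fell in 2 of 14 (median log2 0.68, and 1.13 without control library 2). Prdm1, the plasma cell regulator Blimp-1, was 3.01 and 4.79 CPM in control and 25.2 and 22.7 CPM in Notch-labelled libraries (log2 2.60 ± 0.32, adjusted p = 1.56e-04), and Irf4, which acts with it, was 242 and 197 CPM in control and 572 and 536 CPM in Notch-labelled libraries (log2 1.33 ± 0.14, adjusted p = 7.39e-06). Of the 2 falls, Jchain lost its call without control library 2 (log2 -1.92, adjusted p = 0.0621) and without either Notch-labelled library, and the other, Ell2, was at log2 -0.46. Sdc1 (CD138) was 2.83 and 9.3 CPM in control and 8.85 and 11 CPM in Notch-labelled libraries and did not pass (log2 0.70 ± 0.58, adjusted p = 0.316) except without control library 2 (adjusted p = 0.0165). Genes of protein folding and secretion in the endoplasmic reticulum rose in 16 and fell in 3 of 27 (median log2 0.45), with the disulfide isomerase Pdia6 from 143 and 135 to 325 and 319 CPM and the cofactor Sdf2l1 from 22.6 and 27 to 97.7 and 90.5 CPM. B-1 cell genes rose in 7 and fell in 2 of 11 (median log2 1.72). Bhlhe41, a repressor needed by B-1a cells, rose from 24 and 25.5 to 136 and 122 CPM, whereas its paralog Bhlhe40 fell from 82.8 and 58.7 to 12.2 and 10.9 CPM. Germinal centre genes gave no common direction, where 34.2% of all genes rose and 29.5% fell. Of 15 tested, 5 rose and 6 fell (median log2 -0.98), the median turned positive (0.22) without control library 2, and 2 in place of 5 rose without Notch-labelled library 1. Bcl6, their master regulator, fell from 54.9 and 76 to 11.8 and 11.4 CPM (log2 -2.50 ± 0.22, adjusted p = 6.01e-06).

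Cell cycle genes rose nearly without exception. All 37 tested DNA replication genes rose (median log2 1.79), against 34.2% of all genes. The helicase subunit gene Mcm2 was 83.6 and 74.7 CPM in control and 409 and 399 CPM in Notch-labelled libraries (log2 2.35 ± 0.11, adjusted p = 7.01e-09), and Rrm2, the regulated subunit of ribonucleotide reductase, was 40.3 and 25.5 CPM in control and 195 and 199 CPM in Notch-labelled libraries (log2 2.59 ± 0.27, adjusted p = 1.3e-04). Of the mitosis genes 39 of 40 rose (median log2 2.31). Mki67 (ENSMUSG00000031004, chromosome 7, 135689784 to 135716361), the proliferation marker Ki-67, was 193 and 115 CPM in control and 835 and 819 CPM in Notch-labelled libraries (log2 2.42 ± 0.34, adjusted p = 0.00101). Plk1, the kinase of mitotic entry, was 11.9 and 9.08 CPM in control and 110.4 and 102 CPM in Notch-labelled libraries (log2 3.34 ± 0.17, adjusted p = 1.15e-08), and the transcription factor Foxm1, which drives late cell cycle genes, was 27.2 and 22.4 CPM in control and 118 and 111 CPM in Notch-labelled libraries (log2 2.21 ± 0.12, adjusted p = 1.21e-08). Control library 1 was above control library 2 in most mitosis genes, with summed levels of 1073 and 736 CPM in control and 4538 and 4451 CPM in Notch-labelled libraries. Doubly activated libraries held 578 and 544 CPM, below control. The exception was Pttg1, securin, which fell from 21.1 and 20.2 to 4.2 and 6.18 CPM (log2 -1.99 ± 0.17, adjusted p = 7.39e-07).

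The mitosis promoters are shown because their genes moved together and an element is known for many of them, the cell cycle homology region, through which the DREAM and Myb-MuvB complexes bind late cell cycle genes. Its core, TTTGAA on either strand (TTCAAA on the other), lay in 25 of 34 promoter windows of 32 mitosis genes (73.5%), in 4 of 34 windows of 30 DNA replication genes (11.8%) and in 17.9% of all promoter windows. The other listed mitosis genes were not read. The genes printed, with the core in capitals, are Mki67 (chr7:135716330-135716629, minus strand), Plk1 (chr7:122159185-122159484, plus strand) and Aurka (chr2:172370521-172370820, minus strand), a spindle kinase gene that rose from 8.61 and 9.19 to 46.1 and 45.5 CPM. The first has 2 matches and the others 1 each, and the letters say nothing of binding.
Mki67: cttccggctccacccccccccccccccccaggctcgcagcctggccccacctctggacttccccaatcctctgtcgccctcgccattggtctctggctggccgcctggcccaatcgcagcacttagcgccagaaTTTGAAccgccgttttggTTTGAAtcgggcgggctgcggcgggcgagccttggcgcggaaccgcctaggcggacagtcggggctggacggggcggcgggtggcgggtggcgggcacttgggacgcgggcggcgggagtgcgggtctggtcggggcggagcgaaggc
Plk1: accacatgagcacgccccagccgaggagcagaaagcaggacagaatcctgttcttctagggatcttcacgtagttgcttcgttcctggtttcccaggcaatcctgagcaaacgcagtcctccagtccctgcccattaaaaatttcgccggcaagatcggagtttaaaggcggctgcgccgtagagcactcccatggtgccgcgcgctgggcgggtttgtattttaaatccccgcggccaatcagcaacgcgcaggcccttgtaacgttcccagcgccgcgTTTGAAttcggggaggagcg
Aurka: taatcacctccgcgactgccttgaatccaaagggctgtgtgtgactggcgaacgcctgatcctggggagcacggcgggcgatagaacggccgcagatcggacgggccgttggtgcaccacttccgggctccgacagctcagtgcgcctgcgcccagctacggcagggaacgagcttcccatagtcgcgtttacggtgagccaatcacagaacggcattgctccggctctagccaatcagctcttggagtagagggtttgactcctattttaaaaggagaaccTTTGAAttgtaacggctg

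Regulators of the G1 phase and of arrest moved at the same time. Among G1 cyclins and E2F factors 14 rose and 3 fell of 17 (median log2 0.73). Ccnd1, cyclin D1, which B cells normally express little, was 2.28 and 2.88 CPM in control and 60.5 and 57.4 CPM in Notch-labelled libraries (log2 4.51 ± 0.31, adjusted p = 3.72e-07), and its kinase Cdk4 was 103 and 111 CPM in control and 433 and 423 CPM in Notch-labelled libraries (adjusted p = 9.5e-09). The 3 falls were Ccnd3, Rb1 and Rbl2, of which Ccnd3 lost its call without either Notch-labelled library (adjusted p = 0.116 and 0.058). Rb1, the retinoblastoma protein gene, fell from 146 and 109 to 49.2 and 53.7 CPM (log2 -1.31 ± 0.13, adjusted p = 5.6e-06). CDK inhibitors and p53 targets rose in 13 and fell in 4 of 18 (median log2 1.02). Cdkn1a (p21) was 1.29 and 1.14 CPM in control and 32.4 and 42 CPM in Notch-labelled libraries (log2 4.93 ± 0.29, adjusted p = 2.95e-08), and Phlda3, a p53-induced inhibitor of Akt, was 0 and 0.109 CPM in control and 19.4 and 25.3 CPM in Notch-labelled libraries (ratio 388 with a counting interval of 107 to 3208, adjusted p = 4.24e-08). Cdkn1b (p27), which holds resting lymphocytes in G0, fell from 238 and 214 to 68.4 and 67.8 CPM (log2 -1.73 ± 0.08, adjusted p = 5.76e-09). Cdkn2a, the Ink4a and Arf gene, was 0 and 0.0544 CPM in control and 3.7 and 4.05 CPM in Notch-labelled libraries (ratio 134 with a counting interval of 23.8 to 5339, adjusted p = 4.57e-07). Fibroblast markers rose from near 0 in the same libraries. Their part in the rises of Ccnd1, Cdkn1a, Phlda3 and Cdkn2a was not tested. In the Bcl2 family 5 rose and 8 fell of 16 (median log2 -0.68), against 34.2% and 29.5% of all genes. The survival gene Bcl2 fell from 219.9 and 197 to 125 and 119 CPM (log2 -0.77 ± 0.08, adjusted p = 4.14e-06), while its relative Bcl2l1 (Bcl-xL) rose from 3.14 and 5.33 to 13.1 and 15.2 CPM (log2 1.74 ± 0.33, adjusted p = 5.86e-04). The death effector Bak1 rose from 52.2 and 55.3 to 109 and 104 CPM and the sensor Bmf fell from 30.9 and 39.8 to 6.65 and 7.22 CPM.

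Biosynthetic genes were higher. Of the Myc and ribosome biogenesis list 22 of 30 tested members rose, 3 fell and 5 did not pass (median log2 0.63), and 18 of its 20 nucleolar genes rose. The gene of the nucleolar protein Mybbp1a was 296 and 311 CPM in control and 603 and 581 CPM in Notch-labelled libraries (log2 0.96 ± 0.09, adjusted p = 1.94e-06), and Nolc1, a nucleolar assembly factor, rose from 87.5 and 99.9 to 189 and 182 CPM. Myc itself was 246 and 125 CPM in control and 287 and 282 CPM in Notch-labelled libraries and did not pass (log2 0.62 ± 0.36, adjusted p = 0.187), but passed without control library 1 (log2 1.17, adjusted p = 0.0184). Ribosomal protein genes gave no common direction: 5 of 28 tested members rose, 8 fell and 15 did not pass (median log2 -0.04), and the sign of that median turns (0.06) with libraries scaled by size alone. Many of them have processed copies that could share their reads.

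Glycolysis genes rose in 12 and fell in 2 of 17 (median log2 1.11). Pkm, pyruvate kinase, was 426 and 442 CPM in control and 1737 and 1704 CPM in Notch-labelled libraries (log2 1.99 ± 0.10, adjusted p = 8.19e-09), and Hk2, the inducible hexokinase, was 16.6 and 20.2 CPM in control and 85.1 and 75.5 CPM in Notch-labelled libraries (log2 2.12 ± 0.15, adjusted p = 1.24e-07). The glucose transporter Slc2a1 fell (log2 -0.48 ± 0.09, adjusted p = 3.97e-04). ATF4 targets and serine synthesis genes rose in 14 and fell in 3 of 20 (median log2 1.44), with Phgdh, the first enzyme of serine synthesis, from 74.2 and 75.4 to 204 and 202 CPM and Shmt1, which passes its carbon to folate, from 19.8 and 18.3 to 82.8 and 77.9 CPM. Of the cholesterol synthesis genes 9 of 20 tested members rose, 1 fell and 10 did not pass (median log2 0.03), a median whose sign depended on the setting. DNA repair genes rose in 15 and fell in 3 of 24 (median log2 0.73), with 1 fall without Notch-labelled library 2.

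Chromatin regulators divided evenly, with 7 rose and 7 fell of 18, near the shares of all genes (34.2% and 29.5%). Their median log2 was 0.04 and turned to -0.03 without control library 2. Genes of maintenance methylation rose: Uhrf1, which brings Dnmt1 to replicated DNA, was 64.5 and 51.7 CPM in control and 372 and 373 CPM in Notch-labelled libraries (log2 2.68 ± 0.16, adjusted p = 3.28e-07), and Dnmt1 was 176 and 199 CPM in control and 462 and 452 CPM in Notch-labelled libraries (log2 1.28 ± 0.11, adjusted p = 5.21e-07). The histone methyltransferase Ezh2 rose from 55.2 and 42.6 to 187 and 179 CPM, while its paralog Ezh1, typical of resting cells, fell from 97.8 and 96.7 to 36.2 and 35.1 CPM (log2 -1.45 ± 0.07, adjusted p = 1.02e-08). Hdac9, a class II deacetylase, fell from 57.7 and 58.2 to 4.65 and 3.36 CPM (log2 -3.85 ± 0.14, adjusted p = 8.17e-10).

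NF-kB genes fell more often than they rose: 5 of 27 tested members rose, 16 fell and 6 did not pass (median log2 -0.44), and 11 of 12 subunits and kinases fell. Map3k14, the gene of the kinase NIK, which has no transgene in the Notch-labelled cells, was 103 and 129.6 CPM in control and 36.5 and 33.4 CPM in Notch-labelled libraries (log2 -1.74 ± 0.10, adjusted p = 3.65e-08). Birc3, a NIK-degrading ubiquitin ligase and NF-kB target, fell from 247 and 239.6 to 101 and 102 CPM (log2 -1.27 ± 0.07, adjusted p = 2.15e-08), and the activation marker Cd83 from 179 and 188 to 47.9 and 44.1 CPM (log2 -1.99 ± 0.09, adjusted p = 5.03e-09). The number of rises, 5, went to 2 without control library 1 or without Notch-labelled library 1. Interferon response genes rose in 12 and fell in 4 of 25 (median log2 0.62, and 0.34 without Notch-labelled library 2). The guanylate-binding protein gene Gbp2 was 26.1 and 23.9 CPM in control and 291 and 282 CPM in Notch-labelled libraries (log2 3.52 ± 0.12, adjusted p = 4.86e-10). The RNA sensor Ddx58 (RIG-I) fell from 146 and 137 to 44.6 and 45.1 CPM (log2 -1.66 ± 0.10, adjusted p = 2.64e-08). The falls numbered 7 in place of 4 when only the compared groups were fitted and without either NF-kB-activated library.

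Immediate early and heat shock genes differed between the control libraries themselves. The chaperone gene Hspa1a was 234 and 3.05 CPM in control and 0.5 and 1.58 CPM in Notch-labelled libraries, with control library 1 far above the other 3, and did not pass (log2 -6.81 ± 2.42, adjusted p = 0.0559) except without control library 2 (adjusted p = 0.00422). Over the list 4 of 26 tested members rose, 8 fell and 14 did not pass (median log2 -0.53), with 8 rises and a median of -0.10 without control library 1 and 13 falls without control library 2. The share of falls was near the 29.5% of all genes. Zfp36, a decay factor of short-lived mRNA, fell from 499 and 425 to 118 and 122 CPM (log2 -1.94 ± 0.15, adjusted p = 1.31e-06), outside the spread of both groups.

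**Figure D3:**
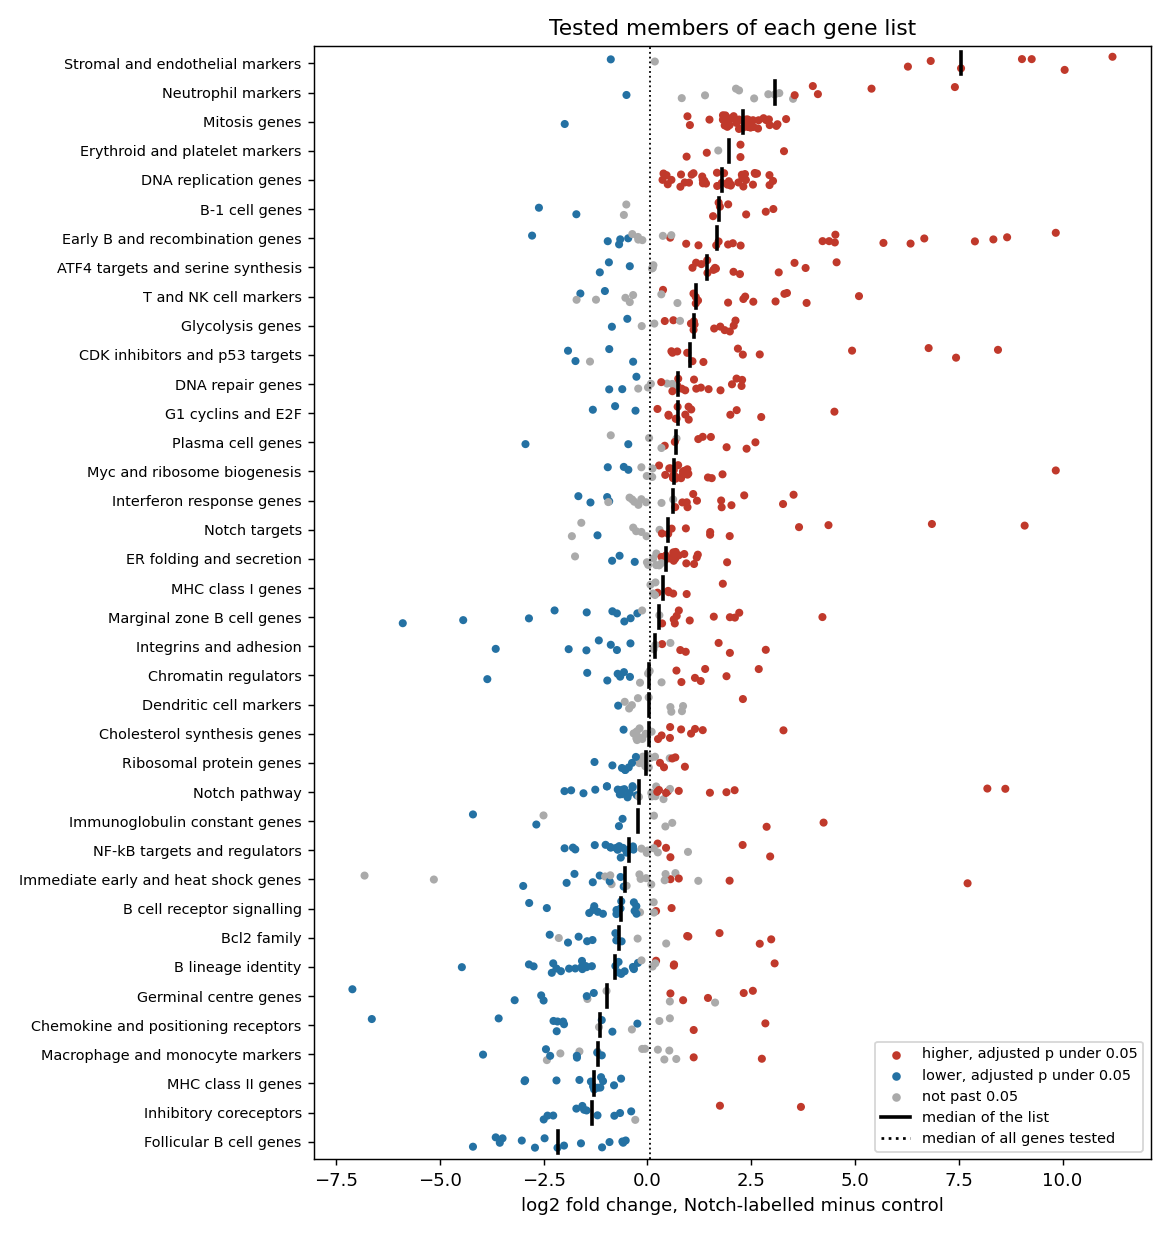
Log2 fold change (Notch-labelled minus control) of every tested member of each of the 38 gene lists, 1 point per gene, ordered by the list's median (black bar); the dotted line is the median of all genes, 0.07. Replication and mitosis genes lie to the right of that line except Pttg1, follicular and MHC class II genes to its left, and marginal zone genes on both sides.

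The largest rises were led by matrix and mesenchymal genes. Among the 10 largest were Rps13-ps2, Col6a1, Igfbp6, Col6a3, Thbs2, Pxdn, Ccn1, Fbn2 and Medag, and 8 of the 10 had no control count. Col6a1 (ENSMUSG00000001119, chromosome 10, 76708792 to 76726168), a chain of the microfibrillar collagen VI, was at 33 and 49.5 CPM in Notch-labelled libraries and without a count in control, at least 477-fold higher against 3 counts over the group. Its partner chain Col6a3 was at 27.5 and 39.2 CPM, at least 385-fold higher. Igfbp6, a binding protein of insulin-like growth factor, was at 28.3 and 39.1 CPM, at least 389-fold higher. Fbn2, fibrillin 2, had 3 counts in control and 248 and 232 CPM in Notch-labelled libraries, a ratio of 2772 with a counting interval of 948 to 13446. Unlike the collagens, it was also found in the lymphoma libraries, at 58.8 and 79.3 CPM. Rps13-ps2 is a processed copy of a ribosomal protein gene, so its reads may belong to the parent gene. It had no count in the other 8 libraries.

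Fibroblast markers moved with these genes. All 7 tested fibroblast markers rose, and their summed level was 2.21 and 3.15 CPM in control and 635 and 859.5 CPM in Notch-labelled libraries. Col1a2, a chain of collagen I, was 0.615 and 0.87 CPM in control and 391 and 534 CPM in Notch-labelled libraries (log2 9.26 ± 0.22, adjusted p = 2.49e-10), and Pdgfrb, a receptor of mesenchymal cells, was without a count in control and at 13.8 and 17.4 CPM in Notch-labelled libraries. Notch-labelled library 2 was above library 1 in each of the 7 markers, whereas the summed B lineage surface and signalling genes stood at 5711 and 5353 CPM. The lymphoid stroma genes Cxcl13, Ccl19 and Ccl21a had at most 3 counts in any of the 4 libraries, and Cxcl12 had 10 and 29 counts in the Notch-labelled ones. Of the endothelial markers, Pecam1, which B cells also express, fell (log2 -0.88 ± 0.08, adjusted p = 8.35e-07) and Cdh5 did not pass. The part of such cells in these rises, or in the other rises from low control levels given above, was not tested.

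Markers of other blood cells moved less uniformly. Of the T and NK cell markers 14 of 23 tested members rose, 2 fell and 7 did not pass (median log2 1.17), with a summed level of 259 and 297 CPM in control and 614 and 646 CPM in Notch-labelled libraries. The largest single part of the latter was Thy1, a surface protein of T cells and of some mesenchymal cells, at 6.89 and 7.83 CPM in control and 257 and 248 CPM in Notch-labelled libraries (log2 5.10 ± 0.28, adjusted p = 2.11e-06). In the lymphoma libraries Thy1 was 879 and 830 CPM and the fibroblast sum 3.7 and 3.37 CPM. Which cells held the Thy1 RNA was not tested. Of the genes that define T cells, Cd3d was 4.12 and 4.13 CPM in control and 2.75 and 3.76 CPM in Notch-labelled libraries, Cd3g was 3.87 and 4.35 CPM in control and 6.25 and 7.37 CPM in Notch-labelled libraries and Trac, the alpha chain constant gene, was 1.29 and 1.9 CPM in control and 1.1 and 1.29 CPM in Notch-labelled libraries, and none of these 3 passed, except Cd3g with library size alone and limma-voom (adjusted p = 0.0381 and 0.0199). Cd3e, which belongs to the same receptor complex, was 1.72 and 3.59 CPM in control and 6.45 and 5.09 CPM in Notch-labelled libraries and passed (log2 1.11 ± 0.45, adjusted p = 0.0474), a call lost without control library 1 (adjusted p = 0.257), without either Notch-labelled library (0.203 and 0.0809) and with DESeq2 (0.0632). Trbc2, a beta chain constant gene, rose from 5.97 and 6.47 to 34.4 and 38.6 CPM (log2 2.55 ± 0.19, adjusted p = 2.5e-07), as did Cd8b1, from 3.63 and 3.16 to 35.2 and 31.5 CPM (log2 3.30 ± 0.16, adjusted p = 7.01e-09). Neutrophil markers summed to 10.7 and 32.5 CPM in control and 92.4 and 89.8 CPM in Notch-labelled libraries. Of 15 tested, 5 rose and 1 fell, a share of rises near the 34.2% of all genes. Their median log2 was 3.07, and 6.66 without control library 2. The granule gene S100a8 was 0 and 2.88 CPM in control and 3 and 2.32 CPM in Notch-labelled libraries and did not pass. Ngp, another granule gene, was 0 and 4.95 CPM in control and 20.04 and 18.7 CPM in Notch-labelled libraries and passed without control library 2 alone (adjusted p = 0.0333). Mpo, the myeloid peroxidase of promyelocytes, was 0.123 and 0.326 CPM in control and 8.55 and 11.4 CPM in Notch-labelled libraries (log2 5.40 ± 0.97, adjusted p = 0.00113), a call lost with limma-voom (adjusted p = 0.0725).

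Macrophage markers were highest in control library 2. They summed to 205 and 523 CPM in control and 194 and 196 CPM in Notch-labelled libraries. Of 19 tested, 2 rose and 7 fell, with 11 falls without control library 1, 1 fall without control library 2 or Notch-labelled library 1, and 2 without Notch-labelled library 2. Their median log2 was -1.20, and 0.24 without control library 2. Csf1r, the growth factor receptor of macrophages, was 11.5 and 56.2 CPM in control and 15 and 14.6 CPM in Notch-labelled libraries and did not pass (log2 -1.20 ± 0.73, adjusted p = 0.206), but passed as lower without control library 1 (adjusted p = 7.32e-04). Cebpa, the granulocyte and monocyte regulator, was 1 of the rises, at 0.43 and 1.25 CPM in control and 5.7 and 5.88 CPM in Notch-labelled libraries (log2 2.76 ± 0.62, adjusted p = 0.0019). Dendritic cell markers gave 1 rise (Bst2, which interferon also induces, log2 2.30 ± 0.22, adjusted p = 2.34e-05) and 1 fall (Irf8, which B cells also express, log2 -0.70 ± 0.09, adjusted p = 3.2e-05) of 11 (median log2 0.03), with 4 rises and a median of 0.79 without control library 2. The erythroid and platelet list rose in 5 of 6, a count that fell to 1 or 2 without any 1 of the 4 compared libraries, and its summed level was 6.52 and 12.6 CPM in control and 36.7 and 35.9 CPM in Notch-labelled libraries. The part of these cells in the other results was not tested.

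**Figure D4:**
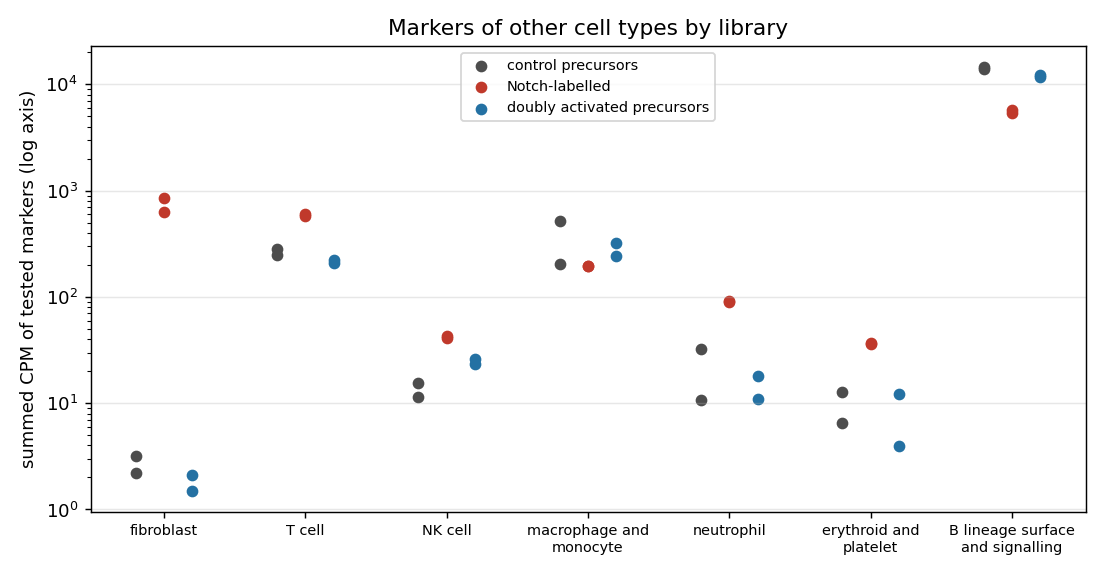
Summed CPM of tested markers of each cell type on a log axis, 1 point per library, for control (grey), Notch-labelled (red) and doubly activated (blue) libraries. The fibroblast sum is 635 and 859.5 CPM in Notch-labelled libraries and under 4 CPM in the other 4 shown, and the macrophage sum is highest in control library 2.

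The largest falls were of other kinds. The 10 named by rule were Rps15a-ps7, Crisp3, Phkg1, Cacna1i, Ccr6, Map3k19, Pcp4, Ms4a4c, P2ry10b and Fcer2a. Phkg1, a catalytic subunit of phosphorylase kinase, had by far the most counts among them, at 1876 and 5492 CPM in control and 27.6 and 4.05 CPM in Notch-labelled libraries (log2 -7.86 ± 1.48, adjusted p = 0.00574). Its replicates spread widely in both groups, yet the groups did not overlap. Cacna1i, a T-type calcium channel, fell from 134 and 218 to 1.95 and 1.34 CPM (log2 -6.74 ± 0.36, adjusted p = 1.45e-06), and the doubly activated libraries held 7.91 and 8.83 CPM. Map3k19 fell from 40.5 and 44.4 to 0.25 and 0.593 CPM (log2 -6.63 ± 0.22, adjusted p = 4.87e-10) and the lymphocyte receptor gene P2ry10b from 29.4 and 33 to 0.55 and 0.445 CPM (log2 -5.95 ± 0.22, adjusted p = 8.32e-10). In the doubly activated libraries Map3k19 was 43.5 and 37 CPM. Ms4a4c, a relative of CD20, fell from 109 and 109.6 to 1.7 and 0.791 CPM. Crisp3 and the processed copy Rps15a-ps7 had no count in Notch-labelled libraries, at least 70.8-fold and 106-fold lower. Pcp4, a calmodulin-binding protein gene, had 2 counts in Notch-labelled libraries, a ratio of 101 with a counting interval of 27.6 to 841.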

How the data were processed

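RNA of sorted cells was purified on Qiagen RNeasy columns and sequenced by Illumina protocols, per the labels' protocols. The authors deposited 1 file per library with estimated counts per transcript, not normalized per the file headers, and the authors' TPM in the same files. The build mm10 and kallisto 0.44.0 are named, without a transcript release, per the submitters' processing notes. Of 88198 transcripts, 86031 matched GENCODE M21 (GRCm38, positions counted from 1) and were summed to 30205 genes and rounded, of which 44 share a symbol; the unmatched held 1.13% to 1.34% of counts in the 4 libraries compared. TPM served only for effective lengths in an alternative.

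Genes were kept by filterByExpr (minimum count 10, total 15), scaled by TMM and fitted with edgeR 4.0.16 (R 4.3.3, robust quasi-likelihood) over all 10 libraries as 5 groups, leaving 5 residual degrees of freedom (common biological coefficient of variation 0.121). Two-sided tests were used, with Benjamini-Hochberg adjustment over all genes tested and calls at 0.05. Chi-square per degree of freedom was 4.48 between the Notch-labelled and 22.1 between the control libraries, so neither pair agreed within sampling noise. The 38 gene lists hold 749 genes, 725 tested. Members, lists and tests were chosen with earlier results of these data known, so lists are described by counts and medians beside all genes, with no list test.

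Genes named were Heyl, Mki67, Sox4, Map3k14, Notch2, the 10 largest rises and falls (adjusted p under 0.05, at least 5 CPM in the higher group, no overlap; leaving aside Xist, genes of the Y chromosome, receptor segments and predicted genes), and of each list its core members and the 4 of smallest p. Those outside that rule were chosen after their values were seen: Notch3, Lfng, Cd300a, Tcf4, Tcf3, Myb, Blk, Bach2, Nfatc1, Pdcd1, Ccr2, Ccr10, Id1, Mycn, Vpreb1, Igll1, Spcs1, Ighg2b, Jchain, Ell2, Bhlhe40, Pttg1, Rbl2, Thy1, Trac, Cdh5, Cxcl12, Cxcl13, Ccl19, Ccl21a, Ddx3y, Eif2s3y and those among the closing observations. A gene with no count in a group is given a bound, computed with 3 counts for that group; where 1 to 3 counts were seen, the ratio comes with an exact 95% interval. Some genes that the rule names are not reported here. The fit was also run on simulated data in which far fewer genes changed than were called here, so that run cannot vouch for these calls. Alternatives were DESeq2 1.42.0, limma-voom (limma 3.58.1), other scalings and filters, a minimum fold of 1.5, exclusion of receptor segments, a fit of only the groups compared, effective lengths as offsets, the replicate number as a block, and the omission of single libraries.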

Additional observations from a re-analysis of the deposited data

How the results depend on the processing

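The count of called genes, 9922 against control and 10002 against doubly activated cells, fell to 5955 and 5980 when a change of at least 1.5-fold was required, a stricter question by construction. Leaving out 1 library gave 8353 to 10014 and 8341 to 10462, and the other settings 9042 to 10145 against control. Deviations of replicate 1 from its group mean correlated at r = -0.027 between the groups over 10376 genes. With 2 pairs this cannot settle whether replicate numbers pair the libraries. The fit with the replicate number as a block gave 9621 and 9673 calls. Of 303 genes named or listed for this purpose, 217 kept direction and call in each of the 21 settings and 86 changed in at least 1.

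The sign turned in some settings for genes that had not passed. For Tcf4 the call itself reversed, since it passed as higher with the length offset (adjusted p = 0.0401) and as lower without control library 2 (0.0203). On the log2 scale, Hes1 was 0.0184, Zbtb46 -0.00296, Tcf4 0.29 and Lair1 0.232 with the length offset. Nfkbia was 0.0117 and Jun 0.000213 with RLE scaling, 0.0912 and 0.0768 with library size alone. Nfkbia was 0.0115 with DESeq2 and Jun 0.0989 with limma-voom. With 1 library left out, the range was -0.588 to 0.0659 for Hes1, -0.134 to 0.0694 for Nfkbia, -0.551 to 0.695 for Jun, -0.00767 to 1.85 for Egr1, -1.93 to 0.328 for Csf1r, -0.416 to 1.53 for Lyz2 and -0.124 to 8.63 for S100a8. It was -0.366 to 0.583 for Zbtb46, -1.23 to 0.787 for Siglech, -0.326 to 5.72 for Ighe, -0.301 to 0.0172 for Tcf4, -0.0347 to 0.254 for Ikzf1 and -0.0823 to 0.467 for Cd24a, the extremes in most cases being the fits without 1 control library. The cause was not tested. With 2 libraries a group, precision is limited by their number.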

Other observations

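Beyond the lists, other genes that were at or near 0 in control libraries stood higher in both Notch-labelled ones; all were chosen after their values were seen. Twist1, a transcription factor of mesenchymal cells, had no control count and was at 6.55 and 9.25 CPM (adjusted p = 8.73e-06). Wwtr1 (TAZ), a Hippo pathway coactivator, was at 11.7 and 15.1 CPM (adjusted p = 1.07e-06), and Ephb4, an ephrin receptor of venous endothelium, at 56.6 and 55.4 CPM (adjusted p = 1.12e-09). The matrix gene Tnc was at 11.9 and 17.2 CPM and the matrix gene Efemp1 at 35.2 and 46.1 CPM. Cxcl1, a neutrophil chemokine gene, was at 5.75 and 6.82 CPM and Ccl2, a monocyte chemokine gene, at 7.4 and 9 CPM, both with no count in either control library.

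Ifi202b, an interferon-inducible gene, was at 9.9 and 12.6 CPM and Apol9a, an apolipoprotein L gene, at 8.4 and 11.5 CPM, with no count of either in control or doubly activated libraries. In the other direction Lrrk2, a kinase gene expressed in B cells, was 529.6 and 462 CPM in control and 10.1 and 12.7 CPM in Notch-labelled libraries (log2 -5.44 ± 0.14, adjusted p = 1.77e-10), and 971 and 939 CPM in doubly activated libraries.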
